A study of Mus musculus with 6 samples.

Results

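The imprinted growth genes described here are H19, Meg3, Peg3, Dlk1, Cdkn1c, Plagl1, Mest, Grb10 and Ndn, and their rows were taken from the count table by gene symbol. All 9 were found among the 49548 genes of the table, and 8 of them were among the 15789 genes that were tested, those with 10 or more counts in 2 or more libraries. Dlk1 was below this minimum. The counts come from native cardiac fibroblasts (CFs), which the labels give as the cell type, of 5-week-old mice. The WT group holds 3 libraries from C57BL/6J mice without the mutation, and the CharmeKO group holds 3 libraries from mice of the same strain and age in which a polyadenylation signal was inserted into the Charme locus, the gene of a long noncoding RNA of cardiac and skeletal muscle. The allele is carried by every cell of the animal and is not restricted to fibroblasts. Hearts of both groups were dissociated enzymatically and the cells were depleted of hematopoietic lineages. The labels also list a growth medium, while the study describes the native CFs as freshly isolated. Hearts came from 3 mice of each genotype, but the sources used here do not say whether each library is 1 animal, so p-values measure the spread between libraries.

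Imprinted genes are transcribed mainly from the allele of one parent, as directed by DNA methylation marks set in the germ line. Many of them act on fetal growth, and as a textbook rule genes used from the paternal allele tend to promote growth and genes used from the maternal allele tend to restrain it. A group of them is expressed together in growing organs and declines together after birth, and Plagl1, a zinc finger transcription factor, has been placed upstream of several others of the group. The counts do not separate the parental alleles, so every value below is the sum over both.

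Parts of the sequence of these loci are shown before the values, since they carry the elements for which the genes are known. RefSeq (GRCm38.p6) gave promoter windows, from 250 bases before to 50 bases after a transcript start, for 7 of the 9 genes, not for H19 and Cdkn1c. These were 11 windows, of which a pair for Mest lies 3 bases apart, leaving 10 distinct ones. Each window was searched on both strands for the GC-rich motif of PLAGL1, GGGGCCCC, and for TGCCGC, whose methylated form is read by ZFP57, the zinc finger protein that keeps imprints after fertilization. The motifs share no letters that would make one a part of the other. TGCCGC or its reverse complement GCGGCA was present in 4 of the 10 distinct windows, those of Mest, Meg3, Plagl1 and Grb10, and in 11.6% of all 32851 windows. These 4 windows held 17, 13, 26 and 45 CG pairs, against a median of 7 over all windows, and the motif itself holds a CG. The part of CG content in the share of matches was not tested. GGGGCCCC was present in 1 window, that of Peg3, and in 1.08% of all windows. A match of letters is a description and not a bound site. The Mest window (chr6:30737800-30738099, plus strand), the Meg3 window (chr12:109540746-109541045, plus strand) and the Peg3 window (chr7:6730370-6730669, minus strand) are given 5′ to 3′ with the matches in capitals, Mest and Meg3 because they had the largest differences between the groups described below, and Peg3 because it alone holds the PLAGL1 motif.
Mest: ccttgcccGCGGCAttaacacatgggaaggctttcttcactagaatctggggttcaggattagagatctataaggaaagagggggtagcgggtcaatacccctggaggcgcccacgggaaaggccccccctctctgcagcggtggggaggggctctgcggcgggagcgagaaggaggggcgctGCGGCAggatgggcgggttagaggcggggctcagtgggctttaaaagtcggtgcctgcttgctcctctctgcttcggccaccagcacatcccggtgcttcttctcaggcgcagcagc
Meg3: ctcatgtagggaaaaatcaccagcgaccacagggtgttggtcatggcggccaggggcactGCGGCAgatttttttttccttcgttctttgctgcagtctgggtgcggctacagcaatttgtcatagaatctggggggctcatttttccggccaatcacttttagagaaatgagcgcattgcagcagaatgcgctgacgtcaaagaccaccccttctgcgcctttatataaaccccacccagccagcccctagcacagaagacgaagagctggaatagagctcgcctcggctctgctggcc
Peg3: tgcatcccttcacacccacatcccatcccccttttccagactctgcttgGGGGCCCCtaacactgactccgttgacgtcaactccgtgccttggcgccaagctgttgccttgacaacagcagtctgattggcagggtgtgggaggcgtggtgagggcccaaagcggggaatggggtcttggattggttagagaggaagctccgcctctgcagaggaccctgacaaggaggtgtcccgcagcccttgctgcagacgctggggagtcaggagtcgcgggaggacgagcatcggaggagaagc

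H19 and Mest are also hosts of microRNAs. The hairpin of miR-675 lies in an exon of H19, on its strand, and that of miR-335 in an intron of Mest. Their mature sequences are given 5′ to 3′ as RefSeq has them, with the seed (bases 2 to 8) in capitals, and the 4 seeds differ from each other. The genome positions on GRCm38.p6 are chr7:142577112-142577133 (minus strand) for miR-675-5p and chr7:142577078-142577099 (minus strand) for miR-675-3p. On the same build they are chr6:30741314-30741336 (plus strand) for miR-335-5p and chr6:30741354-30741375 (plus strand) for miR-335-3p. Poly(A)-selected libraries do not measure mature microRNAs, so no level is given for them.
miR-675-5p: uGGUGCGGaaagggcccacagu
miR-675-3p: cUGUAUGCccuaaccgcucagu
miR-335-5p: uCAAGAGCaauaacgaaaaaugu
miR-335-3p: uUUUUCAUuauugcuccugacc

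The libraries held 9595701 to 42101393 counts on genes, with the lowest total in WT replicate 3. A count of 0 allows up to 3 counts, or 0.0713 to 0.313 CPM (the count divided by the library total and scaled), and this limit covers counting error only. Charme itself had 26, 15 and 4 counts in WT replicates 1, 2 and 3 and 7, 0 and 0 counts in CharmeKO replicates 1, 2 and 3. Summed over 12 fibroblast markers, including Pdgfra, Tcf21, Dcn and Col1a1, the level was 33702 to 39522 CPM in WT and 31345 to 36454 CPM in CharmeKO, with no marker at 0. Gsn alone made up 51.4 to 66.9% of each sum. Without it, the other 11 markers summed to 15491, 13083 and 16372 CPM in WT replicates 1, 2 and 3 and to 11976, 11261 and 14074 CPM in CharmeKO replicates 1, 2 and 3. None of the 12 was called by edgeR and 2 were called by DESeq2, Col1a1 (log2 fold change −0.77, adjusted p of 0.0102 by DESeq2) and Mfap5 (−0.63, 0.0150), both lower in CharmeKO. All 3 CharmeKO libraries were above the WT libraries for 1 of the 12, Dcn, and below them for 2, Mfap5 and Pi16. Over all genes tested, the groups did not overlap, in either direction, for 18.2%. The sums of 12 endothelial, 12 mural, 12 leukocyte and 7 erythroid markers overlapped between the groups. Endothelial markers summed to 9240 to 11406 CPM in WT and 9812 to 12395 CPM in CharmeKO. Erythroid markers summed to 26780 to 39227 CPM and 24409 to 31740 CPM. Slc4a1 of the erythroid list was called lower by edgeR (log2 fold change −1.82, adjusted p of 0.00555) and by DESeq2. DESeq2 also called Vwf (endothelial, adjusted p of 0.00906) and Cspg4 (mural, 0.0158), both lower in CharmeKO. Kdr, Tek, Emcn and Fabp4 of the endothelial list were higher by value in all 3 CharmeKO libraries, and Vwf was lower in all 3. Of the mural list, Cspg4, Notch3 and Pdgfrb were lower in all 3 and Tagln and Cnn1 were higher. Beside these stands the share of 18.2% of all genes without overlap. The sum of 12 cardiomyocyte markers was 405 to 518 CPM in WT and 594 to 918 CPM in CharmeKO. All 12 were higher in CharmeKO by value. Of them, 3 (Myh6, Tnni3 and Mb) were called higher by the edgeR test described below and 6 by DESeq2. Over all genes tested, edgeR called 0.83% and DESeq2 called 2.5%. The sum of 10 epicardial markers was 58.4 to 76.9 CPM in WT and 34.4 to 42.1 CPM in CharmeKO, with Wt1 called lower, and the sum of 8 Schwann cell markers was 26.4 to 28.2 CPM and 29.0 to 31.6 CPM. No marker of these lists was at 0 in all libraries. The part of these other cell types in the results below was not tested. Xist, the RNA of the inactive X chromosome, was at 376 to 473 CPM in WT replicate 1 and CharmeKO replicates 1 and 2 and at 0 to 2.55 CPM in the other libraries. Ddx3y, a gene of the Y chromosome, was at 0, 57.1 and 55.3 CPM in WT and at 2.06, 0 and 48.6 CPM in CharmeKO. This split of the libraries was not balanced between the genotypes.

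Bulk libraries of native CFs of both genotypes held 8 of the 9 imprinted growth genes at well detected levels. None of the 8 was called different between CharmeKO and WT. The cell types that expressed them were not separated. Mest had the largest difference, at 128 ± 42.4 CPM in WT and 77.5 ± 24.0 CPM in CharmeKO (SD, n = 3 each). Meg3 and H19 were also lower on average in CharmeKO and Ndn was higher, while the values of Peg3, Plagl1, Grb10 and Cdkn1c lay closer together. Library totals were adjusted with edgeR's TMM factors throughout. Groups were compared over all 15789 genes with edgeR's quasi-likelihood test, and a gene was called at a Benjamini-Hochberg adjusted p under 0.05. This rule called 0.83% of all genes tested and 0 of the 8 members, and DESeq2 called 2.5% of all genes and 0 of the 8. An unadjusted edgeR p under 0.05 was reached by 2 of the 8 members, Mest and Meg3, against 12.8% of all genes. In none of the 8 were the 3 CharmeKO libraries all above or all below the 3 WT libraries, which was the case for 18.2% of all genes. The median log2 fold change was −0.16 over the 8 members and 0.01 over all genes tested, and 6 of the 8 were lower in CharmeKO by value against 48.8% of all genes.

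**Figure D1:**
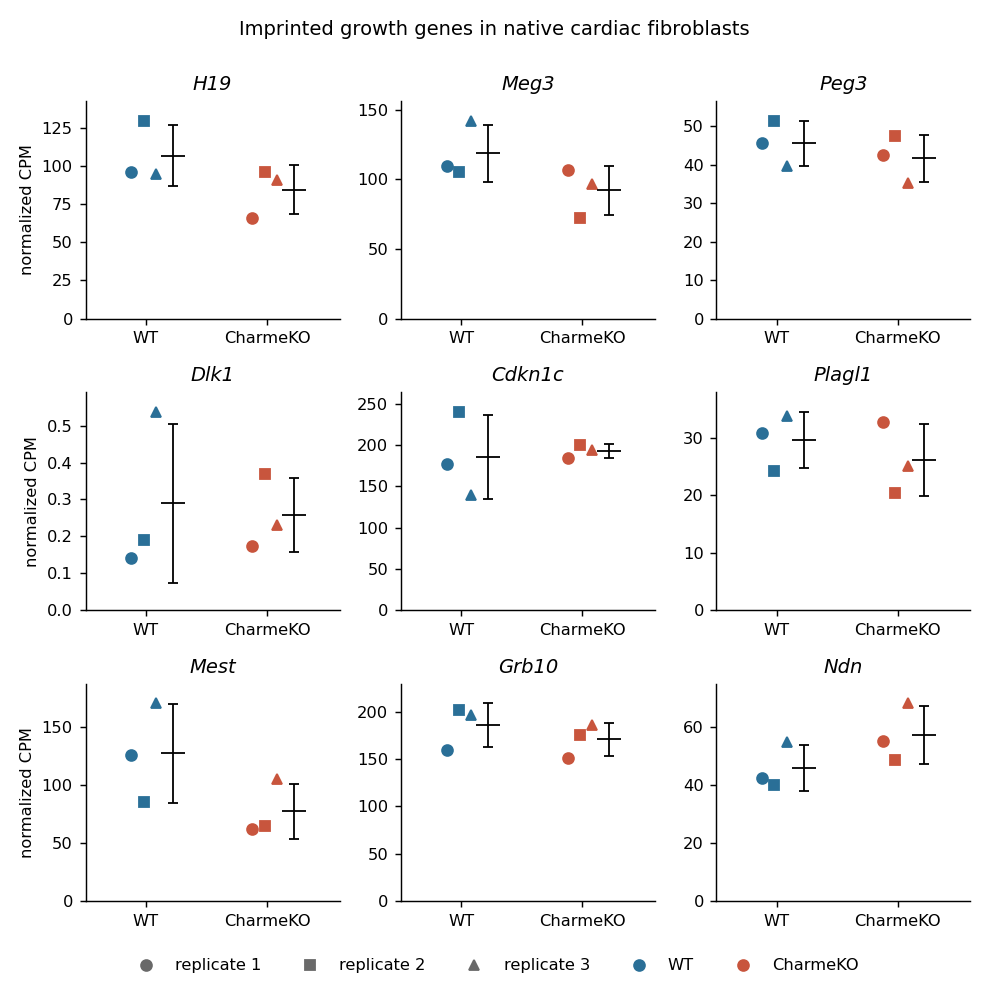
Normalized CPM of the 9 imprinted growth genes in each library, with WT in blue and CharmeKO in red, one marker shape for each replicate number, and the group mean with its SD (n = 3) beside the points. The vertical axes start at 0 and differ between panels. The WT and CharmeKO points overlap in every panel, and Dlk1 stays under 0.6 CPM.

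The members stood in a wide order of level once the values were divided by the length of each gene's exons (GENCODE mouse M21, the union of all exons of the gene). Cdkn1c was the highest, at 92.8 ± 16.1 CPM per kilobase (SD over the 6 libraries), followed by H19 at 38.8 ± 8.24. Mest had 26.0 ± 10.5, Grb10 19.6 ± 2.22 and Ndn 14.0 ± 2.77 CPM per kilobase. Lower levels per kilobase were found for Meg3 (5.83 ± 1.24), Plagl1 (3.57 ± 0.691), Peg3 (3.28 ± 0.433) and Dlk1 (0.0484 ± 0.0268). Among neighbours in this order, the ranges over the 6 libraries were apart only between Cdkn1c and H19, between Ndn and Meg3 and between Peg3 and Dlk1. Mest exceeded Grb10 in 3 of the 6 libraries and Plagl1 exceeded Peg3 in 4, so that these pairs have no clear order. Meg3 has 18089 bases in the union of its exons, more than any other member, and its place depends on this length, since by CPM alone it ranked as number 3 of the 9.

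**Figure D2:**
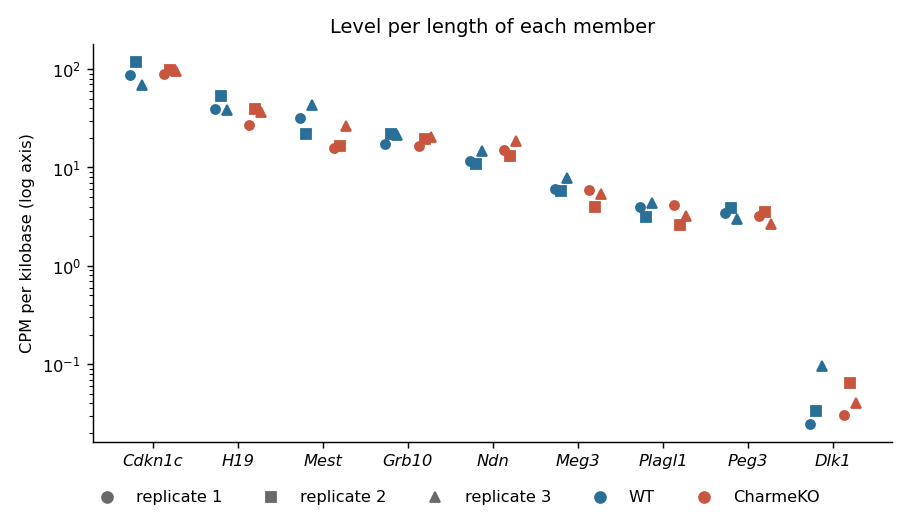
CPM per kilobase of exon length of each member on a log axis, with one point per library, WT in blue and CharmeKO in red. The members run from Cdkn1c, at 68.5 to 118 CPM per kilobase, down to Dlk1, which lies under 0.1 CPM per kilobase in all 6 libraries.

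H19 and Igf2 share a locus, where a control region methylated on the paternal allele directs shared enhancers to H19 on the maternal and to Igf2 on the paternal chromosome. H19 is a long noncoding RNA that restrains growth. It had 4073, 3411 and 879 counts in WT replicates 1, 2 and 3, or 95.7, 130 and 94.5 CPM, and 1895, 2354 and 2755 counts in CharmeKO replicates 1, 2 and 3, or 66.2, 96.2 and 90.6 CPM. WT replicate 2 was high and CharmeKO replicate 1 low, and CharmeKO replicate 2 lay above 2 of the WT libraries. The log2 fold change of CharmeKO against WT was −0.34 (SE 0.165, 95% interval −0.70 to 0.02), with an adjusted p of 0.421 by edgeR. Igf2, the growth factor of the locus, was the most abundant of the 24 other genes listed as expressed from the paternal allele, at 493, 620 and 555 CPM in WT and 449, 425 and 421 CPM in CharmeKO. All 3 CharmeKO libraries were below all 3 WT libraries, but the log2 fold change of −0.37 (SE 0.128) had an adjusted p of 0.268 by edgeR and was not called. The log2 ratio of Igf2 to H19 counts within a library was 2.39 ± 0.151 in WT and 2.37 ± 0.337 in CharmeKO (SD, n = 3 each). The difference of −0.018 was smaller than the spread between libraries (exact permutation test, two-sided, p = 0.9, where 0.1 is the smallest p that 3 against 3 can give), and its sign depended on which library was left out, with values of −0.21 to 0.10. On the other side of H19, Mrpl23, a mitochondrial ribosomal protein gene, differed by 0.10 on the log2 scale (SE 0.141).

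Dlk1 and Meg3 share a second locus of this kind, with Dlk1 on the paternal and the noncoding RNA Meg3 on the maternal chromosome. Dlk1, a membrane protein of the Notch ligand family that is abundant in fetal tissues and preadipocytes, was near the limit of detection, with 6, 5 and 5 counts in WT and 5, 9 and 7 counts in CharmeKO. These are 0.14, 0.19 and 0.54 CPM and 0.17, 0.37 and 0.23 CPM, and the ranges of the groups overlapped. No difference was detectable at this depth, and the gene could be fitted only with no gene filter, where its log2 fold change was −0.05 with an adjusted p of 0.994 by edgeR. Meg3 had 4649, 2759 and 1322 counts in WT (109, 104.9 and 142 CPM) and 3063, 1769 and 2946 counts in CharmeKO (107, 72.3 and 96.9 CPM). WT replicate 3 was high and CharmeKO replicate 2 low, and CharmeKO replicate 1 lay within the WT range. The log2 fold change of Meg3 was −0.36 (SE 0.163, 95% interval −0.72 to −0.0066), with an unadjusted p of 0.0466 and an adjusted p of 0.386 by edgeR. Rian, a noncoding RNA further along the same maternal cluster, had 70.5, 46.0 and 70.7 CPM in WT and 50.2, 35.0 and 54.2 CPM in CharmeKO, a log2 fold change of −0.42 (SE 0.192) with an adjusted p of 0.391 by edgeR. In both groups replicate 2 was the lowest library for Rian and for Meg3. The log2 ratio of Dlk1 to Meg3 counts within a library was −8.79 ± 0.802 in WT and −8.43 ± 0.807 in CharmeKO (SD, n = 3 each), a difference of 0.36 that lay within the spread (exact permutation test, two-sided, p = 0.6) and turned to −0.08 without CharmeKO replicate 2.

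Mest, Peg3, Plagl1 and Ndn are expressed from the paternal allele. Mest codes for an enzyme of the alpha/beta hydrolase fold that is abundant in embryonic mesoderm. It had 5360, 2262 and 1588 counts in WT, or 126, 86.0 and 171 CPM, and 1780, 1597 and 3200 counts in CharmeKO, or 62.1, 65.3 and 105.2 CPM. The groups overlapped, because CharmeKO replicate 3 lay above WT replicate 2. Both groups spread widely around their means, with coefficients of variation of 33.2% and 31.0%. The log2 fold change was −0.71 (SE 0.245, 95% interval −1.25 to −0.17), with an unadjusted p of 0.0139 and an adjusted p of 0.263 by edgeR and of 0.0674 by DESeq2. The 11 fibroblast markers other than Gsn also summed to their highest values in WT replicates 3 and 1, then in CharmeKO replicate 3 and WT replicate 2, as Mest did. Of the 11, only Col1a1 and Col1a2, which are among the most abundant, had this order themselves. Pdgfra and Tcf21 did not have it. Dcn was higher by value in all CharmeKO libraries, while Mfap5 and Pi16 were lower in all. The part of these markers in the Mest values was not tested. In bulk samples such as these, fewer cells that express a gene and less RNA per cell cannot be told apart.

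The call on Mest depended on the fit, while its direction did not. Without WT replicate 2, the lowest WT library, the log2 fold change was −0.93 and the adjusted p of edgeR was 0.0405, in a fit that called 2.25% of all genes. Without WT replicate 3, the highest, the log2 fold change was −0.45 and the adjusted p was 0.617 by edgeR. With all genes that had any count, the adjusted p was 2.3e-05 by edgeR, in a fit that called 2.84% of them. When the Xist level of the library (high or low) entered the model as a term, a choice made after the data were seen, the log2 fold change was −0.63 and the adjusted p was 0.378 by edgeR. Copg2, the neighbour that overlaps 912 bases or 23.1% of the exon length of Mest on the opposite strand and was told apart by the stranded counting, differed by 0.08 on the log2 scale (SE 0.128).

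**Figure D3:**
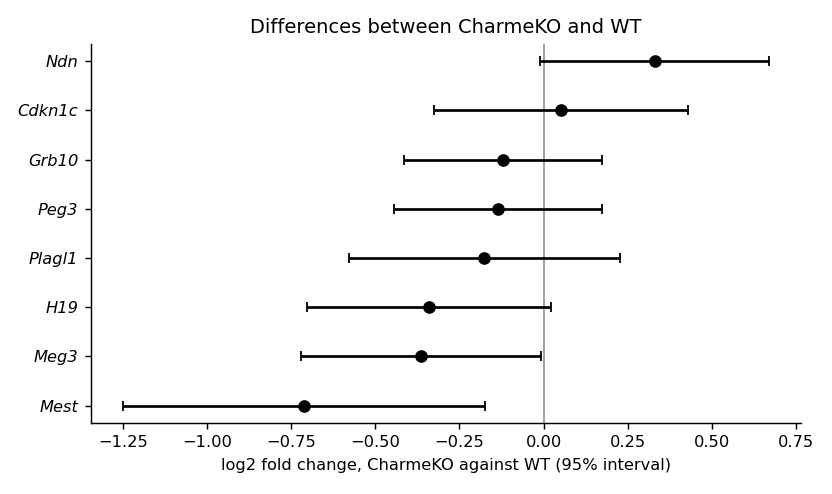
Log2 fold change of CharmeKO against WT for the 8 members tested, as points with the 95% interval of the edgeR fit. The interval of Mest, −1.25 to −0.17, and that of Meg3, whose upper end is −0.0066, lie below 0, and the other 6 include 0; none was called after adjustment over all genes.

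Peg3, a zinc finger protein that acts on growth and on maternal behaviour, had 1947, 1354 and 370 counts in WT (45.8, 51.5 and 39.8 CPM) and 1219, 1161 and 1073 counts in CharmeKO (42.6, 47.5 and 35.3 CPM). The groups overlapped, and the log2 fold change of −0.13 (SE 0.141) had a 95% interval of −0.44 to 0.17. Plagl1 had 1311, 638 and 315 counts in WT (30.8, 24.3 and 33.9 CPM) and 941, 499 and 763 counts in CharmeKO (32.8, 20.4 and 25.1 CPM). CharmeKO replicate 1 lay among the higher WT libraries, and the log2 fold change was −0.18 (SE 0.184, 95% interval −0.58 to 0.23). Ndn, a member of the MAGE family that restrains the cell cycle in differentiating cells, was the member with the largest difference towards higher values in CharmeKO. It had 1810, 1058 and 511 counts in WT (42.5, 40.2 and 54.9 CPM) and 1580, 1190 and 2077 counts in CharmeKO (55.2, 48.7 and 68.3 CPM). WT replicate 3 lay above CharmeKO replicate 2, and the log2 fold change was 0.33 (SE 0.155, 95% interval −0.01 to 0.67), with an adjusted p of 0.409 by edgeR.

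Cdkn1c and Grb10 restrain growth and are expressed mainly from the maternal allele. Cdkn1c codes for p57, an inhibitor of cyclin-dependent kinases, and had 7518, 6320 and 1300 counts in WT (177, 240.3 and 139.8 CPM) and 5267, 4892 and 5908 counts in CharmeKO (184, 200.02 and 194 CPM). The 3 CharmeKO libraries lay close together, with a coefficient of variation of 4.25%, inside a WT range with one of 27.4%. The log2 fold change was 0.05 (SE 0.173, 95% interval −0.33 to 0.43), and it turned to −0.11 without WT replicate 3. Grb10, an adaptor protein that dampens signalling of the insulin and IGF1 receptors, had 6765, 5289 and 1827 counts in WT (159, 201 and 196 CPM) and 4322, 4290 and 5643 counts in CharmeKO (151, 175 and 186 CPM). The groups overlapped and the log2 fold change was −0.12 (SE 0.134, 95% interval −0.41 to 0.17). Next to Grb10, Gm12002 was higher in all 3 CharmeKO libraries than in the WT libraries, with a log2 fold change of 0.57 (SE 0.121) and an adjusted p of 0.0638 by edgeR. Among the nearest tested neighbours of the members, Gm12002 had the lowest adjusted p by edgeR. Zfp954, next to Peg3, was lower in all 3 CharmeKO libraries, with a log2 fold change of −0.44 (SE 0.175) and an adjusted p of 0.321 by edgeR. No gene next to a member was called by edgeR.

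The members did not share a single order of the WT libraries. WT replicate 2 was the highest WT library for H19, Peg3, Cdkn1c and Grb10 and the lowest for Meg3, Plagl1, Mest and Ndn. Over all genes tested, WT replicate 2 was the highest WT library for 38.2% and the lowest for 37.1%. These shares were 31.8% and 28.9% for WT replicate 1 and 30.0% and 34.1% for WT replicate 3, so each was at one end for most genes. Of the members, WT replicate 3 was the highest for Meg3, Plagl1, Mest and Ndn and the lowest for H19, Peg3 and Cdkn1c. In CharmeKO, replicate 2 was the highest for H19, Peg3 and Cdkn1c and the lowest for Meg3, Plagl1 and Ndn, whereas Mest and Grb10 were highest in replicate 3 and lowest in replicate 1. WT replicate 2 was also the lowest WT library for 7 of the 12 fibroblast markers, but the highest for Pdgfra, Tcf21, Dcn and Gsn. WT replicate 3 had the fewest counts. The part of the markers and of depth in the order of the libraries was not tested.

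**Figure D4:**
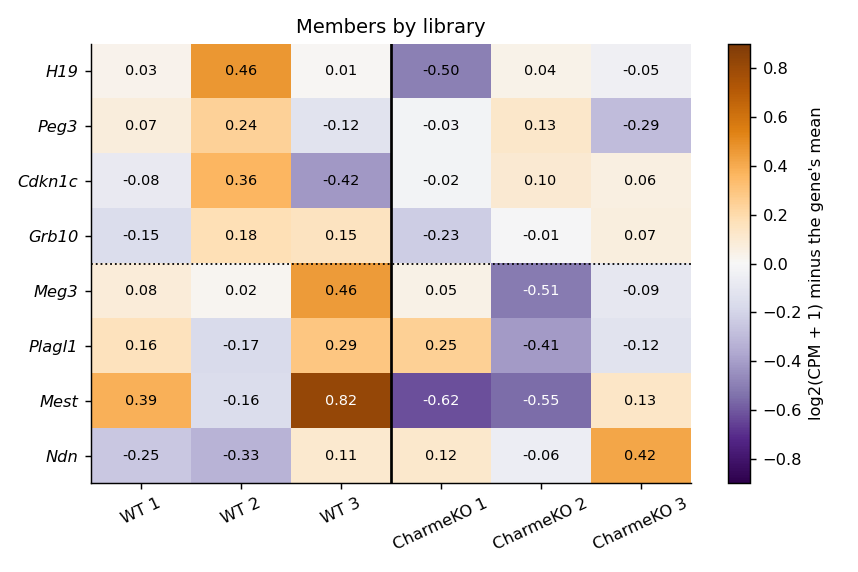
Deviation of log2(CPM + 1) of each tested member from its own mean over the 6 libraries, with orange above and purple below the mean. The upper 4 genes are highest among the WT libraries in WT replicate 2 (0.46 for H19) and the lower 4 are lowest there (−0.33 for Ndn), and Mest spans the widest range, from 0.82 in WT replicate 3 to −0.62 in CharmeKO replicate 1.

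For each member, the genes whose log2(CPM + 1) followed it most closely over the 6 libraries were taken from 10472 tested genes with a mean of at least 5 CPM. With 6 points that share library, depth and genotype and so many genes to choose from, high values of Pearson's r arise readily and are given as a description. H19 was followed most closely by Tgm2, a transglutaminase (r = 0.99), then Ada and Spns1. Mest was followed by Adamts14, a protease of procollagen (r = 1.00, rounded), Rraga, a GTPase of amino acid sensing, and Cercam. The levels of Adamts14 were 31.3, 21.8 and 46.8 CPM in WT and 13.9, 13.9 and 26.5 CPM in CharmeKO, in the same order of libraries as Mest except that CharmeKO replicates 1 and 2 were nearly equal. For Plagl1 these genes were Lats1, a kinase of the Hippo pathway, Hgh1 and Chsy1, for Meg3 Rai1, Sfpq and the gene ENSMUSG00000090673, and for Cdkn1c Zdhhc24, Adcy4 and Brd9. Those of Peg3 were Crkl, Plekhj1 and Ercc5, those of Grb10 were Sf3a2, Dip2a and Ubac1, and those of Ndn were Tomm40, Tlk2 and Sumo2. No member was among the genes most like another. Over the 28 pairs of members, r ran from −0.94 for Peg3 and Ndn to 0.87 for Meg3 and Plagl1.

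Beyond the 9 members, 39 other imprinted genes were listed by the allele they are known to use. Of the 24 paternal ones 17 were tested and of the 15 maternal ones 11, and 0 of these 28 were called by edgeR or by DESeq2, with 5 at an unadjusted edgeR p under 0.05, against 0.83%, 2.5% and 12.8% of all genes by these rules. The median log2 fold change was −0.19 for the paternal and −0.22 for the maternal genes, and 21 of the 28 were lower in CharmeKO by value, against 48.8% of all genes. The 3 CharmeKO libraries were all lower than the 3 WT libraries in 5 of the 28 and all higher in 2, together 7 genes, against 18.2% of all genes. Magel2, Snurf, Calcr, Kcnk9 and Klf14 had 0 counts in every library.

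Among the paternal genes with the highest mean CPM, Peg10 and Sgce, which start next to each other in opposite directions, differed in opposite directions by value. Sgce, which codes for epsilon-sarcoglycan of the dystrophin complex, was at 82.1, 81.4 and 81.9 CPM in WT and 101.2, 98.7 and 98.9 CPM in CharmeKO, with little spread in either group. Its log2 fold change was 0.28 (SE 0.098) with an adjusted p of 0.265 by edgeR. Peg10, a gene derived from a retrotransposon, was at 24.2, 27.9 and 25.5 CPM in WT and 24.0, 21.2 and 22.8 CPM in CharmeKO, just below the WT range, with a log2 fold change of −0.19 (SE 0.126). Peg13 (log2 fold change −0.13) and Impact (−0.05) overlapped between the groups.

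Among the maternal genes, Igf2r, the receptor that clears IGF2 from the cell surface, was at 415, 476 and 471 CPM in WT and 364, 367 and 403 CPM in CharmeKO. The groups did not overlap, and the log2 fold change was −0.26 (SE 0.122) with an adjusted p of 0.400 by edgeR. Ube3a, a ubiquitin ligase whose imprint is known from neurons, was at 43.9, 35.9 and 39.5 CPM in WT and 49.9, 46.2 and 44.4 CPM in CharmeKO, again without overlap, with a log2 fold change of 0.24 (SE 0.118). Gnas (log2 fold change 0.07) and H13 (−0.18) overlapped. Phlda2, which restrains growth of the placenta, had 20, 21 and 8 counts in WT and 0, 5 and 1 counts in CharmeKO, and these few counts gave an adjusted p of 0.250 by edgeR. It was chosen after its values were seen.

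**Figure D5:**
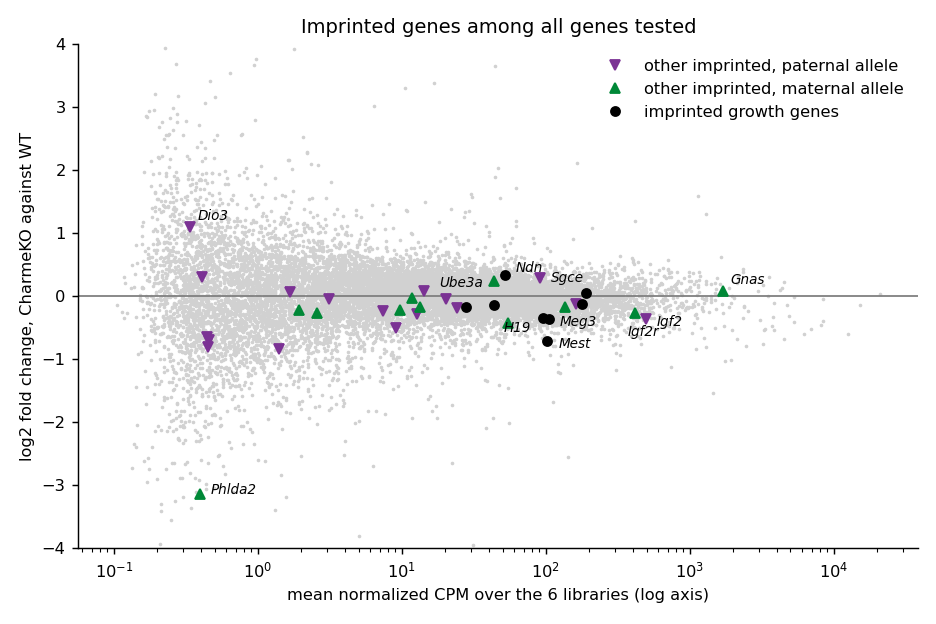
Log2 fold change of CharmeKO against WT over the mean normalized CPM (log axis) of all 15789 genes tested in grey, the 8 members tested in black, and the other imprinted genes in purple (paternal allele) and green (maternal allele). The members lie among the genes of similar level, at −0.71 (Mest) to 0.33 (Ndn), and 48 grey genes beyond ±4 are outside the axis.

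Of 30 genes that act with the members, among them receptors and substrates of insulin and IGF signalling, Notch receptors, cyclins, cyclin-dependent kinases and their inhibitors, 26 were tested. 0 of the 26 were called by edgeR and 3 by DESeq2, with 4 at an unadjusted edgeR p under 0.05, all lower in CharmeKO. The shares of all genes called by these rules were 0.83%, 2.5% and 12.8%. The median log2 fold change was −0.17. All 3 CharmeKO libraries were below the WT libraries for 4 of the 26, Irs2, Notch2, Igf1r and Ccne1, and above them for 0. Over all genes tested, the groups did not overlap, in either direction, for 18.2%. Irs2, an adaptor that the insulin and IGF1 receptors phosphorylate, was at 240, 305 and 308 CPM in WT and 202, 163 and 225 CPM in CharmeKO. All CharmeKO libraries were below the WT libraries, with a log2 fold change of −0.53 (SE 0.152) and an adjusted p of 0.179 by edgeR and 0.0258 by DESeq2. Notch2, a receptor of the pathway that Dlk1 acts on, was at 107, 111 and 135 CPM in WT and 89.4, 87.7 and 77.0 CPM in CharmeKO, also without overlap, with a log2 fold change of −0.47 (SE 0.124) and an adjusted p of 0.141 by edgeR and 0.0306 by DESeq2. E2f1, a transcription factor of entry into S phase, was at 19.6, 9.51 and 26.1 CPM in WT and 4.82, 5.77 and 9.76 CPM in CharmeKO. For E2f1, CharmeKO replicate 3 lay just above WT replicate 2, and the log2 fold change of −1.42 (SE 0.346) had an adjusted p of 0.113 by edgeR and 0.00153 by DESeq2. With no gene filter, all 3 of these genes were called by edgeR, with adjusted p of 0.0119 for Irs2, 0.0223 for Notch2 and 3.6e-10 for E2f1. Without WT replicate 2, edgeR called E2f1 but not Irs2 or Notch2. E2f1 and Notch2 were chosen after their values were seen.

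The most abundant of these 30 genes apart from Irs2 showed no such separation. Notch1, Ccnd1, Cdkn1a and Ccnd3 had log2 fold changes of −0.19, −0.18, 0.15 and −0.31, and each overlapped between the groups. Ccnd1, a D-type cyclin, was at 457, 219 and 516 CPM in WT. WT replicate 2 was the lowest WT library for it, as for 15 of the 26 partners tested and 37.1% of all genes tested. Lin28b, an RNA-binding protein of fetal growth, had 0 counts in every library.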

How the data were processed

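Directional poly(A) libraries were made from native CFs of 3 WT and 3 CharmeKO samples. After a quality filter, the authors used STAR to align reads to a GRCm39 mouse assembly, counted them on an Ensembl annotation with Charme added, in the "reverse" strand setting, and deposited raw counts without normalization. Groups came from the genotype in the labels. After TMM normalization, genes with 10 or more counts in 2 or more libraries were tested by edgeR 4.0.16 (quasi-likelihood) in R 4.3.3. DESeq2 1.42.0, other scalings and filters, the replicate number as a block, each library left out, and, added after the data were seen, a term for Xist were alternatives. Scripts were tested on simulated data. Ratios had 0.5 counts added. Exon lengths, gene order and overlaps came from GENCODE mouse M21 on GRCm38, another build than the counts. The positions given for promoter windows and microRNAs are those of RefSeq on GRCm38.p6, and no other coordinates are given. The members and gene lists were chosen with earlier results of these data known. All 9 members were named, and of the other imprinted genes and growth partners the genes called and the 5 most abundant. For each member the 3 most alike genes were named. The nearest tested neighbours were all compared, but only some of them were named. Further genes were named where said. Figures were drawn with matplotlib 3.10.9.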

Additional observations from a re-analysis of the deposited data

How the results depend on the processing

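Over 16 alternatives, 124 of the 128 log2 fold changes of the 8 tested members kept their direction and their side of the threshold. The exceptions were Cdkn1c, which reversed to −0.11 without WT replicate 3 (−0.11 to 0.28 over the libraries left out), and Mest, which was called with no gene filter, with the replicate block (adjusted p of 0.0201 by edgeR) and without WT replicate 2, so that the number of members called was 1 with no gene filter, 1 with the block and 0 to 1 with 1 library left out. With 1 library left out, the log2 fold change had these ranges, with the library whose removal left it smallest in size in parentheses: −0.44 to −0.18 for H19 (WT replicate 2), −0.48 to −0.22 for Meg3 (CharmeKO replicate 2), 0.19 to 0.47 for Ndn (CharmeKO replicate 3), −0.23 to −0.03 for Peg3 (CharmeKO replicate 3), −0.37 to −0.03 for Plagl1 (CharmeKO replicate 2), −0.22 to −0.04 for Grb10 (CharmeKO replicate 1) and −0.997 to −0.45 for Mest (WT replicate 3). The number of growth partners called was 3 by DESeq2, 3 with no gene filter, 1 (E2f1) with the block and 0 to 1 with 1 library left out, and that of other imprinted genes was 0 throughout. Samples with the same replicate number deviated together with r of 0.22, 0.05 and 0.16, each library most with its own number, which does not make the numbers a pairing, and the block raised the calls among all genes from 131 to 302. All genes called numbered 394 by DESeq2, 699 with no gene filter and 61 to 349 with 1 library left out. The causes were not tested. Depth limits Dlk1 and Phlda2, among other genes of few counts.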
